A study of Homo sapiens with 12 samples.

Results

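The mRNAs described here encode the machinery by which a human cell stores iron and senses it: the ferritin chains FTH1 and FTL, the transferrin receptor TFRC, the iron regulatory proteins IREB2 and ACO1, and the ferritin cargo receptor NCOA4. They were chosen by gene symbol, as 6 of the 59385 gene names in the count table, and all 6 passed the filter on low counts. Upon PRRC2B knockdown, translation efficiency (TE, the polysome-to-total RNA ratio) fell for IREB2, ACO1 and NCOA4 and rose for FTH1, whereas the differences of FTL and TFRC did not pass the test. The fall of IREB2 lay in the polysome RNA. The fall of NCOA4 lay beside a rise in its total RNA. The calls of FTH1 and ACO1 were lost after adjustment for transcript length, in which each library's trend of counts on length was taken out. Of the 6 mRNAs, 0 were on the paper's list of mRNAs bound by PRRC2B, and 0 held a binding site in its crosslinking data (PAR-CLIP). The paper attributes translation changes of unbound mRNAs to secondary effects, and whether that holds for these mRNAs was not tested.

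The samples were HEK293T cells, a human embryonic kidney cell line, carrying a doxycycline (Dox)-inducible short hairpin RNA. The shPRRC2B cells expressed a hairpin against PRRC2B, an RNA-binding protein, and the shCtrl cells a non-silencing hairpin. Both lines were grown in DMEM with fetal bovine serum, were selected with puromycin as single clones and received Dox, and RNA was taken 36 h later, so that the hairpin and the clone cannot be told apart. Total RNA was extracted from whole cells with Trizol. Polysome RNA came from the pooled heavier fractions of a sucrose gradient, loaded with cycloheximide-treated lysate from which nuclei had been pelleted. Each of the 4 groups of line and fraction held 3 libraries, labelled as biological replicates and numbered 1 to 3. The p-values therefore measure the spread between replicates of 1 clone for each hairpin. In such bulk libraries, fewer cells with an mRNA and less of it in each cell cannot be told apart.

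Cells control iron mainly after transcription. When iron is scarce, the iron regulatory proteins bind a hairpin called the iron-responsive element (IRE). In the 5′ UTR of the ferritin mRNAs this binding blocks translation, and in the 3′ UTR of TFRC mRNA it protects the message from decay, so that storage is reduced and uptake is raised. When iron is plentiful, ACO1 takes up an iron-sulfur cluster and becomes the cytosolic aconitase, and IREB2 is degraded after recognition by the ubiquitin ligase subunit FBXL5. NCOA4 carries ferritin to the autophagosome, a step towards the release of its iron.

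The IRE is the sequence that sets the ferritin and TFRC messages apart from the other members. Matches to a strict search for it are shown here as read from the GENCODE 44 transcripts (GRCh38). Looser hairpins were not searched, so that a transcript, TFRC included, may hold IREs beyond the matches shown. The search took a C, 5 bases, a loop that starts with CAGTG and ends with any base, and 5 bases able to pair with those before the loop, G-T pairs included, that is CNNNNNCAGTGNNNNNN on the transcript strand. Each line gives 30 bases of the mRNA from 5′ to 3′, written as DNA, with the 6 bases of the loop in capitals.
FTH1 5′ UTR, exon 1: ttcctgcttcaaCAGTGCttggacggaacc
FTL 5′ UTR, exon 1: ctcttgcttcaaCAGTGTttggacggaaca
TFRC 3′ UTR, match 1: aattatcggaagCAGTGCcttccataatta
TFRC 3′ UTR, match 2: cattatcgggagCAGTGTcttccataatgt
TFRC 3′ UTR, match 3: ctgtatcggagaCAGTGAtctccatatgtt
TFRC 3′ UTR, match 4: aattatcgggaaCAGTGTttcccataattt
SLC40A1 5′ UTR, exon 1: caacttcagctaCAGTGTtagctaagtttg

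The FTH1 stretch lies at chr11:61967573-61967602 on the minus strand and ends 147 nt before the start codon. The FTL stretch lies at chr19:48965335-48965364 on the plus strand and ends 143 nt before the start codon. The 4 TFRC stretches lie on the minus strand of chromosome 3 in exon 19, at chr3:196050978-196051007, chr3:196050574-196050603, chr3:196050509-196050538 and chr3:196050462-196050491. The SLC40A1 stretch, in the mRNA of the iron exporter ferroportin, lies at chr2:189580660-189580689 on the minus strand. A match occurred in 19 of 17663 5′ UTRs (0.108%) and in 122 of 19338 3′ UTRs (0.631%). Among the 4298 3′ UTRs at least as long as that of TFRC, 70 (1.63%) held a match, and TFRC was the 1 3′ UTR with at least 3. No match was found in the canonical transcripts of IREB2, ACO1 and NCOA4.

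The mRNAs differ widely in length, which bears on every result below. The canonical FTL transcript has 871 nt, of which 528 are coding, in a gene at chr19:48965309-48966879 (plus strand). FTH1 has 1203 nt with 552 coding, at chr11:61959718-61967634 (minus strand). NCOA4 has 3461 nt with 1845 coding, at chr10:46005088-46030623 (minus strand). TFRC has 5012 nt, of which 2658 are 3′ UTR, at chr3:196012511-196082153 (minus strand). IREB2 has 6324 nt, at chr15:78437431-78501453 (plus strand), and ACO1 has 7443 nt, of which 4658 are 3′ UTR, at chr9:32384603-32454769 (plus strand).

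The ferritin counts carry 2 limits of counting. Exons 2 to 4 of FTH1, 880 of its 1203 bases (73.2%), are also covered by exons of BEST1 on the opposite strand in GENCODE 44, while exon 1, with 323 bases and the IRE, is not. No strand setting was given for the counting, and read pairs that fit both genes equally would not be counted. BEST1 itself had 0 to 55 counts per library against 2990 to 7105 for FTH1. No such overlap was found for the other 5 mRNAs. The ferritin genes also have processed copies in the genome. The table holds 25 names of the FTH1P kind and 16 of the FTLP kind, and 2 of these 41 passed the filter. The FTH1P names held 0.506% to 1.16% of the summed FTH1 and FTH1P counts in a library, and the FTLP names 0.0884% to 1.05%. The most counted were FTLP12 (mean 15.0 counts), FTH1P20 (10.25) and FTH1P3 (6.17).

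The libraries held 9855734 to 20837542 counts. PRRC2B itself, the target of the hairpin, had 272, 313 and 258 CPM (counts relative to the library's total, scaled by the trimmed mean of M-values, TMM) in the shCtrl total libraries. It had 97.9, 103 and 100.5 CPM in the shPRRC2B total libraries, a log2 change of −1.49 (SE 0.17, adjusted p = 4.25e-06, edgeR). Of the 6 kidney-line markers, 5 were at 1 CPM or more in all 12 libraries, the exception being LHX1. Of 13 markers of blood, fibroblasts, hepatocytes and enterocytes, COL1A1 and CDX2 reached that level in all 12. TMM gave the total libraries factors of 1.34 to 1.47 and the polysome libraries 0.681 to 0.742, and this sets where 0 lies in any comparison of polysome with total RNA.

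In total RNA of shCtrl cells, the ferritin chains were the most abundant of the 6 mRNAs per length. FTH1 had 191 ± 22.5 CPM per kb and FTL had 189 ± 13.6 CPM per kb (SD, n = 3), levels that did not differ beyond their spread. Over the 323 bases of FTH1 that BEST1 does not cover, the same counts would be 711 CPM per kb, so that the order of both chains rests on the overlap. TFRC at 23.2 ± 1.20, IREB2 at 21.4 ± 1.29 and NCOA4 at 21.1 ± 0.877 CPM per kb were within or near each other's spread. ACO1 was lowest, at 5.997 ± 0.118 CPM per kb. In polysome RNA of the same cells the level per length spanned a wider range, from 499.9 ± 51.2 CPM per kb for FTL and 396 ± 43.5 for FTH1 to 1.38 ± 0.254 for ACO1. NCOA4 stood between these with 16.9 ± 3.51, above IREB2 with 6.44 ± 0.413 and TFRC with 5.37 ± 1.04 CPM per kb.

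**Figure D1:**
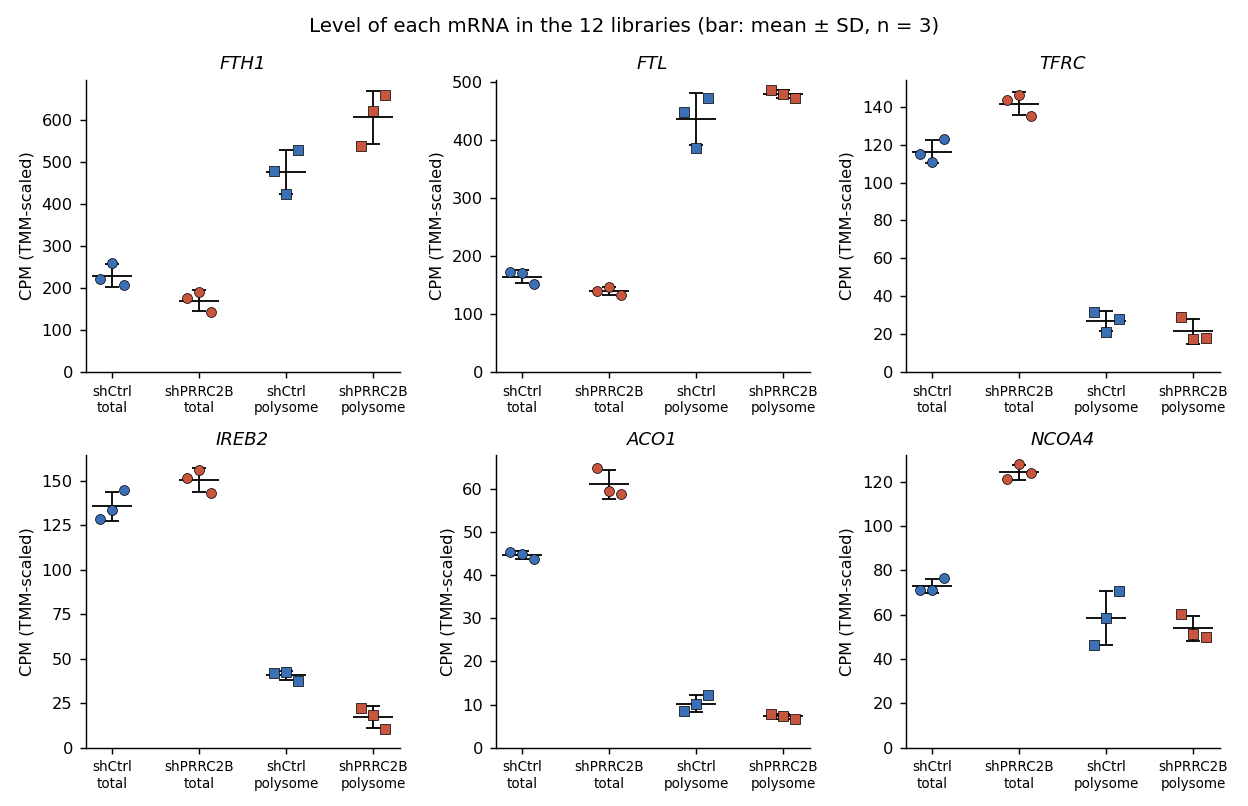
Level of each mRNA in CPM (TMM-scaled, linear axis from 0) in the 12 libraries; circles are total RNA, squares polysome RNA, blue shCtrl, red shPRRC2B, and bars the mean ± SD of 3 libraries. FTH1 and FTL were higher in polysome than in total RNA, from 386 to 661 CPM against 133 to 259 CPM, whereas TFRC, IREB2 and ACO1 were lower in every polysome library than in any total library.

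How each mRNA divided between the fractions was compared first within each line. In shCtrl cells, the log2 polysome-to-total difference was 1.05 (SE 0.15) for FTH1 and 1.40 (SE 0.12) for FTL. It was −2.11 (SE 0.18) for TFRC, −1.73 (SE 0.18) for IREB2, −2.13 (SE 0.15) for ACO1 and −0.32 (SE 0.14) for NCOA4. Thus 2 of the 6 were called higher in polysome RNA and 3 lower by edgeR's quasi-likelihood test, with a Benjamini-Hochberg adjusted p under 0.05 and a log2 difference past 0.5 required for a call. Over all 18166 genes tested, 32.5% were called higher and 39.8% lower. The NCOA4 difference had an adjusted p of 0.0442 in this test but did not reach the size required.

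In shPRRC2B cells the same difference was 1.84 (SE 0.15) for FTH1 and 1.77 (SE 0.12) for FTL. It was −1.21 (SE 0.14) for NCOA4, −2.72 (SE 0.18) for TFRC, −3.07 (SE 0.15) for ACO1 and −3.12 (SE 0.19) for IREB2. Here 2 were called higher and 4 lower, against 36.6% and 42.3% of all genes. The spread of the 6 mRNAs was thus wider in the knockdown line at both ends, as it was over all genes. Genes with canonical transcripts under 1000 nt had a median of 2.26 in shCtrl and 2.84 in shPRRC2B cells. Those of 6000 nt or more had −1.72 and −2.37. The TE test below takes the difference between the lines gene by gene and does not test the spread.

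Where 0 lies in these comparisons depends on the scaling. Under TMM the median of all genes was −0.22 in both lines. With scaling by total counts it was −1.22 in shCtrl and −1.16 in shPRRC2B cells, and calls in shCtrl cells were 23.1% upward instead of 45.0%. The FTH1 difference in shCtrl cells was then 0.052 and that of FTL 0.40, neither of them called, and NCOA4 was called lower at −1.33. Relative to the median of all genes the placing hardly moved: FTH1 lay 1.28 above it under TMM and 1.27 above it by total counts, and FTL 1.63 and 1.62 above it. After length adjustment of the fractions, an alternative chosen after seeing the data, FTH1 and FTL turned to −0.54 and −0.57 in shCtrl cells and to −0.070 and −0.59 in shPRRC2B cells. NCOA4 turned to 0.14 in shCtrl cells, and IREB2 there was −0.35 and no longer called.

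**Figure D2:**
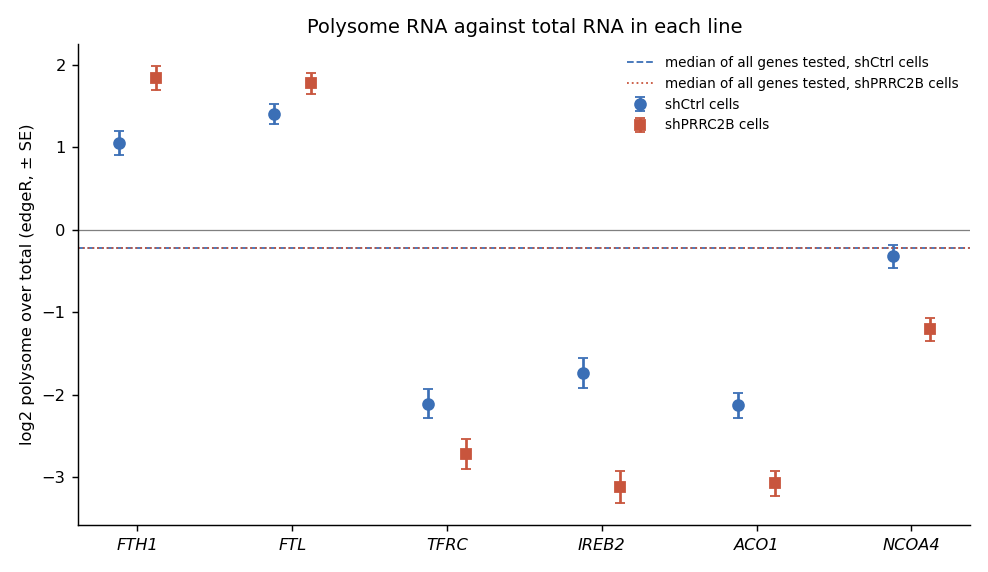
Log2 polysome-to-total difference of each mRNA (edgeR fit, TMM scaling, bars ± SE) in shCtrl cells (blue circles) and shPRRC2B cells (red squares), with the median of all 18166 genes as a dashed and a dotted line at −0.22. FTH1 and FTL lie above the median in both lines, TFRC, IREB2 and ACO1 below it, and NCOA4 near it in shCtrl cells alone.

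The effect of the knockdown on TE was tested as the difference between the lines in the polysome-to-total difference. Of the 6 mRNAs, FTH1 was called higher and IREB2, ACO1 and NCOA4 lower. Over all genes, 10.7% were called higher and 16.4% lower. The median log2 TE change of the 6 was −0.75, and that of all genes −0.034. In total RNA 1 of the 6 was called higher (NCOA4) and 0 lower, beside 14.9% and 14.1% of all genes. In polysome RNA 0 were called higher and 1 lower (IREB2), beside 18.4% and 21.4%. In both of the counts of 0 by edgeR, 1 mRNA (FTH1) had an unadjusted p under 0.05 in that direction, and DESeq2 and limma also called 0.

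**Figure D3:**
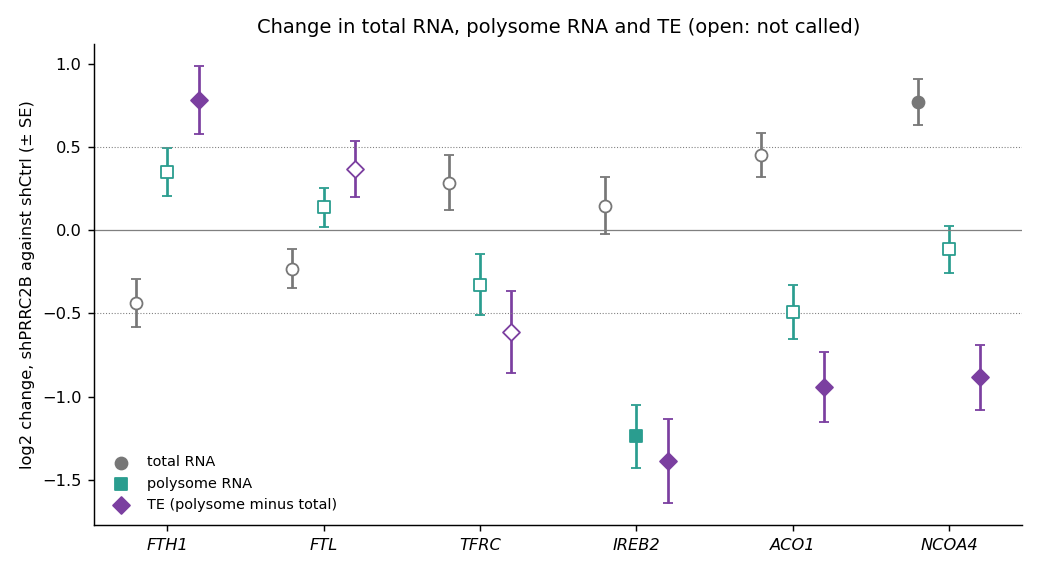
Log2 change in shPRRC2B against shCtrl cells for total RNA (circles), polysome RNA (squares) and TE (diamonds), bars ± SE from edgeR; filled symbols were called, dotted lines mark the required size of 0.5. FTH1 and FTL have polysome changes above their total changes, and the other 4 mRNAs have polysome changes below their total changes.

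FTH1 encodes the heavy ferritin chain, which oxidises iron for storage. Its total RNA was 223, 259 and 207 CPM in shCtrl and 177, 190.3 and 142 CPM in shPRRC2B libraries, so that every knockdown library lay below every control library. The log2 total RNA change was −0.44 (SE 0.14, adjusted p = 0.0268, edgeR), short of the required size. It reached −0.51 without shCtrl total replicate 3, −0.52 without shPRRC2B total replicate 2 and −0.51 by total counts, and was then called. Polysome RNA was 479, 424 and 528 CPM in shCtrl and 537, 622 and 661 CPM in shPRRC2B libraries, which again did not overlap, now with the knockdown libraries higher. The log2 polysome change was 0.35 (SE 0.14, adjusted p = 0.0590, edgeR). This FTH1 polysome RNA change was 0.17 without shCtrl polysome replicate 2 and 0.19 without shPRRC2B polysome replicate 3, or 0.27 and 0.28 with the 12-library TMM factors kept, and 0.082 after length adjustment. The TE of FTH1 rose by 0.78 on the log2 scale (SE 0.20, adjusted p = 0.00900, edgeR), or 1.72-fold. With each library left out in turn the rise was 0.65 to 0.86. After length adjustment it was 0.47 (adjusted p = 0.0787), not called.

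FTL encodes the light chain, which favours mineralisation of the stored iron. Its total RNA was 172, 171 and 151 CPM in shCtrl and 140.2, 147 and 133 CPM in shPRRC2B libraries, without overlap. Polysome RNA was 447, 386 and 473 CPM in shCtrl and 486, 478 and 471 CPM in shPRRC2B libraries. These overlapped, since shPRRC2B replicate 3 lay under shCtrl replicate 3. The log2 changes were −0.23 in total RNA (SE 0.12, adjusted p = 0.141), 0.14 in polysome RNA (SE 0.12, adjusted p = 0.368) and 0.37 in TE (SE 0.17, adjusted p = 0.113, edgeR). None was called. The TE value turned to −0.018 after length adjustment. The polysome value turned to −0.044 without shCtrl polysome replicate 2, where TMM took a total library as its reference, and was 0.056 to 0.20 with any library left out and the 12-library TMM factors kept.

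Whether both chains changed in step was asked from their ratio inside each library, which does not depend on the scaling. Total libraries had 1.39 ± 0.115 FTH1 counts per FTL count in shCtrl and 1.21 ± 0.125 in shPRRC2B cells (SD, n = 3, exact two-sided permutation test p = 0.2). Polysome libraries had 1.10 ± 0.0241 and 1.27 ± 0.150 (exact permutation p = 0.2). Both pairs of groups overlapped. With 3 libraries against 3 the smallest p such a test can give is 0.1, and 6 such ratios were tested.

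TFRC brings transferrin-bound iron into the cell. Its total RNA was 115, 111 and 123 CPM in shCtrl and 144, 146 and 135 CPM in shPRRC2B libraries, all of the latter higher. Polysome RNA was 31.5, 21.3 and 28.1 CPM in shCtrl and 29.1, 17.3 and 18.0 CPM in shPRRC2B libraries. Replicate 1 was the highest polysome library of both lines, and the groups overlapped. The log2 changes were 0.28 in total RNA (SE 0.17, adjusted p = 0.198), −0.33 in polysome RNA (SE 0.18, adjusted p = 0.157) and −0.61 in TE (SE 0.25, adjusted p = 0.0746, edgeR). The TE value was past the required size but not the p threshold, and the call was gained when either of a pair of polysome libraries was left out. Without shPRRC2B polysome replicate 1 the TE change was −0.96 (adjusted p = 0.00248) and the polysome change −0.72. Without shCtrl polysome replicate 2 they were −0.80 (adjusted p = 0.0318) and −0.57, all of these called. With the TMM factors of the 12 libraries kept, the TE changes were −0.90 and −0.75, still called, and the polysome changes −0.61, called, and −0.47, not called. After length adjustment the TE change was −0.18.

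The TFRC-to-FTH1 ratio sets the classic message for uptake against that for storage. In total libraries it was 0.516, 0.428 and 0.595 in shCtrl and 0.811, 0.769 and 0.950 in shPRRC2B cells, with no overlap (exact permutation p = 0.1, adjusted p = 0.2 over the 6 ratios). In polysome libraries it was 0.0657, 0.0502 and 0.0531 in shCtrl and 0.0541, 0.0278 and 0.0272 in shPRRC2B cells, where shPRRC2B replicate 1 lay inside the control range (exact permutation p = 0.3). The ratio was therefore higher in the knockdown line in total RNA, by 0.72 on the log2 scale. In polysome RNA its difference was −0.70, or −1.02 without shPRRC2B replicate 1. The ratio is free of library scaling but sets 5012 nt against 1203 nt, and it was not adjusted for length. In the edgeR fit with length adjustment, the polysome changes were −0.0094 for TFRC and 0.082 for FTH1. The total RNA changes in that fit were 0.17 and −0.39.

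IREB2, the iron regulatory protein that is degraded when iron is plentiful, had the largest TE change of the 6 mRNAs. Its total RNA was 129, 134 and 145 CPM in shCtrl and 151, 156 and 143 CPM in shPRRC2B libraries, which overlapped. The log2 total RNA change was 0.15 (SE 0.17, adjusted p = 0.536, edgeR), and −0.012 after length adjustment. Polysome RNA was 42.1, 42.3 and 37.7 CPM in shCtrl and 22.5, 18.5 and 10.6 CPM in shPRRC2B libraries. The highest knockdown library was well below the lowest control library, and shPRRC2B replicate 3 was the lowest of all. Polysome RNA fell by 1.24 on the log2 scale (SE 0.19, adjusted p = 5.06e-05) and TE by 1.39 (SE 0.25, adjusted p = 0.000780, edgeR). With each library left out in turn the TE change lay between −1.70 and −1.17, and after length adjustment it was −0.82 (adjusted p = 0.0158), in each case called.

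ACO1, the iron regulatory protein that doubles as cytosolic aconitase, was the least counted of the 6. Its total RNA was 45.4, 44.8 and 43.7 CPM in shCtrl and 64.9, 59.5 and 58.8 CPM in shPRRC2B libraries, all of the latter higher. Polysome RNA was 8.43, 10.1 and 12.2 CPM in shCtrl and 7.82, 7.26 and 6.66 CPM in shPRRC2B libraries, all of the latter lower, from 70 to 110 counts per library. The log2 changes were 0.45 in total RNA (SE 0.13, adjusted p = 0.0135) and −0.49 in polysome RNA (SE 0.16, adjusted p = 0.0200, edgeR), both just short of the required size. After length adjustment the total RNA change was 0.27 (adjusted p = 0.101, edgeR) and the polysome change −0.00080, so that the polysome fall was no longer seen. TE fell by 0.94 on the log2 scale (SE 0.21, adjusted p = 0.00311, edgeR). The TE call held with each library left out (−1.11 to −0.85) but not after length adjustment (−0.27, adjusted p = 0.349).

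The ACO1-to-IREB2 ratio compared both iron regulatory proteins within a library. In total libraries it was 0.353, 0.336 and 0.302 in shCtrl and 0.428, 0.381 and 0.411 in shPRRC2B cells. In polysome libraries it was 0.200, 0.238 and 0.324 in shCtrl and 0.347, 0.392 and 0.631 in shPRRC2B cells. Neither pair of groups overlapped, and the ratio was higher in the knockdown line in both fractions (exact permutation p = 0.1, adjusted p = 0.2, for each). IREB2 had more counts than ACO1 in every library.

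NCOA4 was the 1 mRNA of the 6 whose total RNA change was called. Its total RNA was 71.3, 71.2 and 76.5 CPM in shCtrl and 121, 128 and 124 CPM in shPRRC2B libraries, and the groups lay far apart against their spread. Total RNA rose by 0.77 on the log2 scale (SE 0.14, adjusted p = 0.000397, edgeR), or 1.70-fold in means. Polysome RNA was 46.3, 58.4 and 70.5 CPM in shCtrl and 60.2, 51.2 and 50.0 CPM in shPRRC2B libraries, which overlapped. The log2 polysome change was −0.12 (SE 0.14, adjusted p = 0.533, edgeR). TE fell by 0.88 on the log2 scale (SE 0.20, adjusted p = 0.00327, edgeR), between −1.06 and −0.78 with each library left out. Both calls held after length adjustment, with TE at −0.68 (adjusted p = 0.0168) and total RNA at 0.68 (adjusted p = 0.000736).

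Counted over the 6 mRNAs, the total RNA groups did not overlap for 3 that were higher (TFRC, ACO1 and NCOA4) and 2 that were lower (FTH1 and FTL) in the knockdown line. Over all genes 34.1% and 28.8% did so. In polysome RNA 1 was higher without overlap (FTH1) and 2 lower (IREB2 and ACO1), beside 21.6% and 21.5% of all genes.

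TE changes fell with transcript length over all genes. Among the 6 mRNAs the shortest, FTL and FTH1, had the changes above 0 and the 4 longer ones the changes below it, although within this the order of the changes did not follow the order of length. The median log2 TE change was 0.48 for the 1727 genes with canonical transcripts under 1000 nt, the class of FTL, and 0.28 for 1000 to 1999 nt, the class of FTH1. It was −0.19 for 3000 to 3999 nt, the class of NCOA4, and −0.38 for 4000 to 5999 nt, the class of TFRC. It was −0.69 for the 2657 genes of 6000 nt or more, the class of IREB2 and ACO1. FTH1 therefore lay above the median of its class, NCOA4 and IREB2 below theirs, and FTL at 0.37, TFRC at −0.61 and ACO1 at −0.94 nearer to theirs. After length adjustment, 0 of the 6 were called higher and 2 lower (IREB2 and NCOA4). Over the 15762 genes of that fit, 1751 were called higher and 1637 lower, so that 51.7% of all TE calls were upward instead of 39.4%. The part of length in these differences was not tested beyond this.

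**Figure D4:**
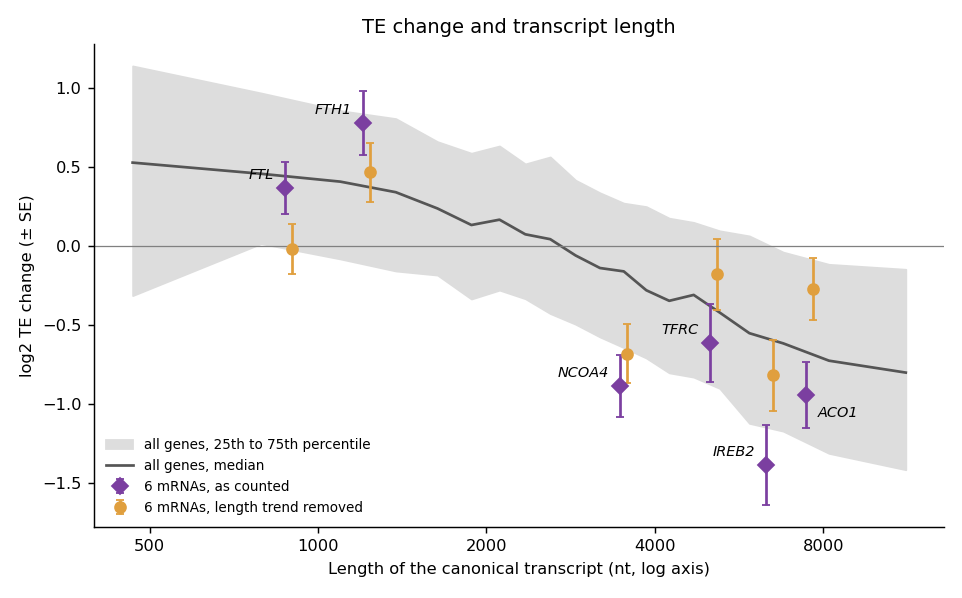
Log2 TE change against the length of the canonical transcript (nt, log axis); the line and the grey band give the median and the 25th to 75th percentile of all genes in 20 classes of length. Purple diamonds are the 6 mRNAs as counted and orange circles the same after length adjustment (bars ± SE); FTH1 moves from 0.78 to 0.47, ACO1 from −0.94 to −0.27, IREB2 from −1.39 to −0.82 and NCOA4 from −0.88 to −0.68.

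Other mRNAs known or proposed to carry an IRE were examined as context. The list has 11 names with FTH1, FTL and TFRC among them, and 10 passed the filter (ALAS2, of the first step of heme synthesis in red cells, had at most 6 counts). In TE, 2 of the 10 were called higher, FTH1 among them, and 4 lower (EPAS1, APP, CDC42BPA and SLC11A2), with a median of −0.42. Over all genes 10.7% were called higher and 16.4% lower. On adjustment for length FTH1 was no longer called, and 2 were called lower (EPAS1 and APP), beside 1637 of 15762 genes.

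SLC40A1 differed in both fractions: total RNA was 2.94, 2.52 and 2.90 CPM in shCtrl and 8.82, 8.58 and 6.64 CPM in shPRRC2B libraries. It rose by 1.53 on the log2 scale in total RNA (SE 0.30, adjusted p = 0.000927) and by 1.41 in polysome RNA (SE 0.32, adjusted p = 0.00179), while its TE change was −0.11 (SE 0.44, adjusted p = 0.891, edgeR).

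EPAS1, a hypoxia-inducible transcription factor, had a TE change of −1.58 (SE 0.27), with total RNA called higher at 0.82 and polysome RNA called lower at −0.76. APP, the amyloid precursor, had a TE change of −1.48 (SE 0.17), CDC42BPA, a kinase, of −1.33 (SE 0.21), and SLC11A2, which carries ferrous iron out of endosomes, of −0.85 (SE 0.23). The canonical transcripts of these 4 held no match to the hairpin search. This cannot show that they lack an IRE, since other transcripts and looser hairpins were not searched. CDC14A, a phosphatase whose 3′ UTR held 1 match, was called higher in total RNA (0.78) and not called in TE (−0.22). FBXL5, which recognises IREB2 for degradation, was not called in total RNA (−0.10), polysome RNA (0.17) or TE (0.26).

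The wider iron pathway was followed in 8 lists with 80 names, of which 69 passed the filter. The 11 others had at most 9 counts in any library, and FTMT, BOLA2 and HMOX2 are listed at 0 in all. A listing at 0 does not show that BOLA2 or HMOX2 was not expressed, since pairs that fit overlapping or near-identical genes would not be counted. Over the 69, TE was called higher for 11 and lower for 17, with a median of −0.15. In total RNA 12 were higher and 4 lower, beside 14.9% and 14.1% of all genes. In polysome RNA 15 were higher and 18 lower, beside 18.4% and 21.4%. Before length adjustment, the shares called lower and higher in TE were both above those of all genes (16.4% and 10.7%). After it, 8 were higher and 11 lower, and the share called higher was then near that of all genes. Over the 15762 genes of the length-adjusted fit, 1751 were called higher and 1637 lower, which is also the background for the lists below.

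Among 8 genes of ferritin loading and turnover, 0 were called higher in TE and 5 lower: NCOA4, PCBP2, HERC2, TAX1BP1 and RB1CC1. Over all genes the shares were 10.7% and 16.4%, and after length adjustment 0 of the 8 were called higher and 3 lower. PCBP2, a chaperone that brings iron to ferritin, had polysome RNA of 239, 272 and 295 CPM in shCtrl and 123, 117 and 123 CPM in shPRRC2B libraries, and its TE fell by 1.09 on the log2 scale (SE 0.17). HERC2, a ubiquitin ligase that acts on NCOA4, had a TE change of −2.14 (SE 0.71) that rested on shCtrl polysome replicate 1. That library held 18 HERC2 counts and the other 5 polysome libraries 2 or 3, and without it the change was −0.68 (adjusted p = 0.557). The call was lost in 8 of the 12 fits that left out 1 library. TAX1BP1 and RB1CC1, of the autophagy route that takes NCOA4, had changes of −0.99 and −0.75.

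Among 8 genes of iron import, 0 were called higher in TE and 4 lower: SLC39A14, STEAP2, STEAP3 and SLC11A2. Over all genes the shares were 10.7% and 16.4%. In this list and the turnover list, 0 genes had a higher TE at an unadjusted p under 0.05 in edgeR, or by DESeq2 or limma. SLC39A14, a carrier of iron that is not bound to transferrin, had polysome RNA of 17.1, 33.5 and 27.3 CPM in shCtrl and 9.89, 5.64 and 7.61 CPM in shPRRC2B libraries. These did not overlap, and its TE fell by 1.97 on the log2 scale (SE 0.29, adjusted p = 0.000154, edgeR). STEAP2 and STEAP3, ferrireductases, had changes of −1.44 and −1.07. Adjusted for length, 3 of the 8 were called lower, SLC39A14 (−1.58) among them. STEAP2 (−0.80, adjusted p = 0.0904) and SLC11A2 (−0.53, adjusted p = 0.103, edgeR) were then not called. The 3 were therefore not all among the 4 named above.

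The iron-sulfur cluster genes, which use iron in mitochondria and cytosol, had calls mostly the other way. Of 17 mitochondrial genes, 5 were called higher in TE (SLC25A28, ISCU, GLRX5, LYRM4 and ISCA2) and 2 lower, HSPA9 among them. The shares over all genes were 10.7% and 16.4%. ISCU, the scaffold on which clusters are built, had polysome RNA of 263, 249 and 241 CPM in shCtrl and 635, 571 and 636 CPM in shPRRC2B libraries, and its TE rose by 1.05 on the log2 scale (SE 0.17, adjusted p = 0.000313, edgeR). SLC25A28, a mitochondrial iron carrier, rose by 1.19 (SE 0.25). HSPA9, a mitochondrial HSP70, had a change of −0.86 (SE 0.17). Adjusted for length, 5 of the 17 were called higher and 1 lower, beside 1751 and 1637 of 15762 genes. Of 10 cytosolic genes, 3 were called higher (CIAO2B at 0.99, NUBP2 at 0.70 and CIAO2A at 0.56) and 0 lower, and 1 higher after length adjustment. At an unadjusted p under 0.05 in edgeR 1 of the 10 was lower (NDOR1), and DESeq2 and limma called 0 lower.

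Of 11 genes of heme synthesis and breakdown, 1 was called higher in TE (PPOX at 0.63, SE 0.21) and 0 lower, by edgeR, DESeq2 and limma and at an unadjusted p under 0.05. Of 2 export genes, FLVCR1, a heme exporter, was called lower at −0.68 (SE 0.22) and SLC40A1 was not called. Of 6 genes of iron regulatory protein control, IREB2 and ACO1 were the 2 called, both lower. The shares over all genes were those given above. The calls of PPOX and FLVCR1 were lost in 9 and 8 of the 12 fits that left out 1 library, and in 7 and 8 with the 12-library TMM factors kept. Both were also lost after length adjustment, with PPOX at 0.45 (adjusted p = 0.119) and FLVCR1 at −0.14 (adjusted p = 0.696, edgeR).

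**Figure D5:**
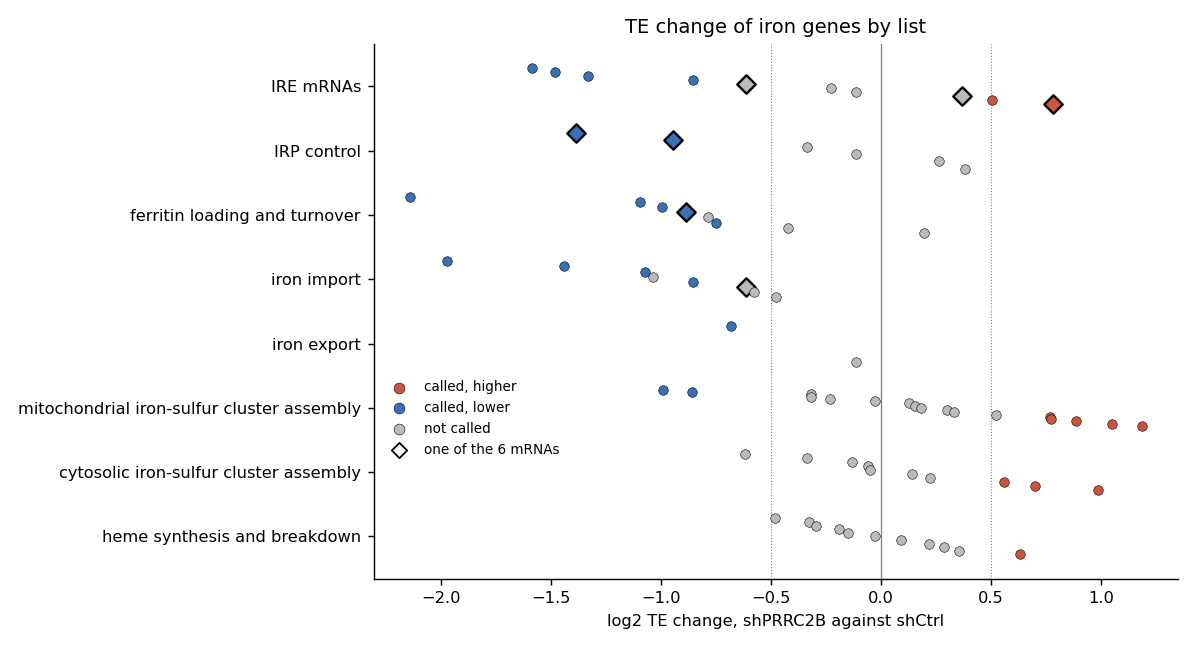
Log2 TE change (shPRRC2B against shCtrl, edgeR) of the 69 iron genes that passed the filter, in 8 lists; red points were called higher, blue lower and grey not called, diamonds are the 6 mRNAs and dotted lines mark 0.5 and −0.5. The turnover and import lists have 0 red points, and the cytosolic iron-sulfur list has 3 red and 0 blue; a gene in more than 1 list is drawn in each.

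The profile of each mRNA over the 12 libraries was then compared with all genes of at least 10 CPM, by the root mean square difference of log2(CPM + 1) values centred on each gene's mean. The nearest profiles to FTH1 were MATK (0.117), LBX1-AS1 (0.120) and FASTK (0.137), and FTL was 4th (0.164). Those nearest to FTL were PGAP2 (0.0950), TPGS2 (0.119) and ATG12 (0.120), and FTH1 was 25th. Nearest to TFRC were URB2 (0.128), FOXC1 (0.132) and SMURF1 (0.142), with ACO1 92nd. Nearest to IREB2 were GJA1 (0.132), UBE3A (0.135) and ANP32E (0.150), with ACO1 575th. Nearest to ACO1 were DDB1 (0.0712), LARS1 (0.0827) and TOB2 (0.104), with TFRC 165th. Nearest to NCOA4 were SLC25A13 (0.110), SF3A3 (0.111) and CCT2 (0.120). The ferritin chains were thus close to each other, and no other pair of the 6 was among each other's 25 nearest profiles. These distances describe the 12 libraries and carry no test.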

How the data were processed

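The authors sequenced poly(A)-enriched total and polysome RNA of HEK293T lines as read pairs. Per the labels and the methods, Trimmomatic 0.36 trimmed the reads and HISAT2 (2.1.0 in the submitters' processing notes) aligned them to GRCh38. They were then counted per gene name with featureCounts of Subread 2.0.1 on GENCODE 38. Both ends of a pair had to align, and chimeric pairs and marked duplicates were left out. A minimum overlap fraction was set, and no strand option was given. The deposited table holds raw counts of 59385 gene names in 12 libraries, with no normalisation by the authors applied in the table.

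Counts were analysed with edgeR 4.0.16 (R 4.3.3): filterByExpr with a minimum count of 10 kept 18166 genes, TMM factors were set over 12 libraries, and 1 quasi-likelihood fit with the 4 groups gave every contrast. P-values were adjusted by Benjamini-Hochberg over all genes tested, and a call required that p under 0.05 together with a log2 change past 0.5 in either direction. A log2 SE is the change divided by the square root of its F statistic. The fit was tested on simulated data. Library totals of 9855734 to 20837542 counts limit the precision of low mRNAs most. CPM values are TMM-scaled, the length adjustment enters a lowess curve (span 0.3) of each library as an offset, levels per kb use canonical GENCODE 44 transcript lengths, known for 15762 of the genes tested (86.8%), and ratios within a library use raw counts. DESeq2 1.42.0, limma 3.58.1 on log2(CPM + 1), other scalings, filters, blocks and libraries left out, with the TMM factors refitted or kept, served as alternatives.

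The genes were chosen, and the lists written, with earlier results of these data known. Named were the 6 mRNAs, PRRC2B, the 3 ferritin pseudogene names with most counts, the listed IRE mRNAs and FBXL5, of each of 8 iron lists up to 2 genes with the largest rise and 2 with the largest fall called in TE, and the 3 nearest profiles of each mRNA among genes of at least 10 CPM. Of these genes, 2 are not reported here by name. BEST1, BOLA2, FTMT, HMOX2, NDOR1, TAX1BP1, RB1CC1, STEAP3, GLRX5, LYRM4, ISCA2, CIAO2A and ALAS2 were named after their values were seen.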

Additional observations from a re-analysis of the deposited data

Results flagged for a closer look

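The polysome-to-total RNA ratio of 4 mRNAs differed between the shPRRC2B and shCtrl lines by the test of the difference itself (edgeR's quasi-likelihood test, adjusted over all genes). On the log2 scale the difference was −1.39 for IREB2, −0.94 for ACO1, −0.88 for NCOA4 and 0.78 for FTH1. Over all genes 10.7% and 16.4% were called higher and lower by the same test. After length adjustment, the differences of IREB2 (−0.82) and NCOA4 (−0.68) were still called and those of ACO1 (−0.27) and FTH1 (0.47) were not. The groups of 3 libraries were too small for a search for single outlying libraries.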

How the results depend on the processing

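The TE calls of IREB2 and NCOA4 held under every alternative run, and those of FTH1 and ACO1 under all but the 2 with length adjustment. After length adjustment, alone and together with the replicate block, the TE change was 0.47 and 0.47 for FTH1, −0.018 and −0.020 for FTL, and −0.27 and −0.27 for ACO1, and 0 of the 6 mRNAs were called higher. The total RNA change of IREB2 was then −0.012 and −0.017, the polysome change of FTL −0.12 and −0.13, and that of NCOA4 0.0092 with the block. With each polysome library left out in turn, the polysome change of FTL ran from −0.044 (without shCtrl polysome replicate 2) to 0.13. With every gene of at least 1 count kept, TFRC was called lower in TE (−0.66, adjusted p = 0.0247, edgeR). With each library left out, the TE change of TFRC ran from −0.96 to −0.50.

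Length adjustment of the fractions, chosen after seeing the data, turned the polysome-to-total difference in shCtrl cells to −0.54 for FTH1, −0.57 for FTL and 0.14 for NCOA4, and in shPRRC2B cells to −0.070 for FTH1 and −0.59 for FTL. The number called higher in polysome RNA was then 0 in both lines, and it was 0 in shCtrl cells by total counts and by TMM within each fraction, also chosen after seeing the data.

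With no minimum log2 change, 2 mRNAs were called higher (ACO1 and NCOA4) and 1 lower (FTH1) in total RNA, and 2 lower (IREB2 and ACO1) in polysome RNA. By total counts FTH1 was the 1 called lower in total RNA, and with 1 library left out 0 to 1 were. In polysome RNA 2 were called lower by DESeq2, by RLE size factors, by total counts and with every gene kept, IREB2 and ACO1 in each, and 1 to 3 with 1 library left out. ACO1 was added without any polysome library other than shCtrl replicate 3, and TFRC without shCtrl polysome replicate 2 or shPRRC2B polysome replicate 1. After length adjustment the polysome change of ACO1 was −0.00080 and that of TFRC −0.0094, neither of them called.

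Leaving out a polysome library also changed the reference library of TMM from a polysome to a total library, and the median polysome change of all genes was then −0.11 to −0.044 instead of −0.011. The same fits were therefore repeated with the filter and TMM factors of the 12 libraries kept, an alternative chosen after seeing the data. The TE calls of FTH1, IREB2, ACO1 and NCOA4 held in all 12. TFRC was called lower in TE without shCtrl polysome replicate 2 (−0.75) and without shPRRC2B polysome replicate 1 (−0.90). In polysome RNA, ACO1 was added without shCtrl replicate 1 (−0.62) or shPRRC2B replicate 1 (−0.55), and TFRC without shPRRC2B replicate 1 (−0.61). The polysome change of NCOA4 turned to 0.042 without shCtrl replicate 3, and that of FTL was 0.056 to 0.20.

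No pairing by replicate number was seen: same-numbered libraries deviated together with correlations of −0.05 to 0.05. From 3 libraries in each group this cannot show that same-numbered libraries came from separate cultures. With the number as a block, the TE changes were 0.78 for FTH1, 0.37 for FTL, −0.62 for TFRC, −1.40 for IREB2, −0.94 for ACO1 and −0.88 for NCOA4, and the block changed no call of the 6. ACO1 with 70 to 110 and IREB2 with 111 to 450 counts per polysome library were the members with the least depth in 1 group.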
